A study of Mus musculus with 18 samples.

Results

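This account follows 10 mouse genes through C2C12 myotubes in which Erk3 or Mk5 was silenced, in the presence or absence of palmitic acid. The genes were chosen by name, with earlier results of these data known. Isg15, Uba7, Ube2l6, Herc6 and Trim25 belong to the attachment of ISG15 to proteins, and Parp9, Dtx3l, Parp10, Parp12 and Parp14 are interferon-induced ADP-ribosyltransferases or, for Dtx3l, the ligase partner of one. All 10 were found among the 55414 genes of the count table, and all 10 passed the filter on low counts, which required 10 read pairs summed over the 18 libraries and left 21772 genes. C2C12 is a mouse myoblast line that fuses into myotubes when serum is withdrawn. Confluent cells received a pool of siRNAs that was non-targeting (siNtc) or directed against Erk3 (siErk3, gene Mapk6) or Mk5 (siMk5, gene Mapkapk5), and were differentiated for 6 days. They then spent 16 h without serum, with 0.5 mM palmitic acid bound to BSA (PA) or with BSA alone. Each of the 6 groups has 3 libraries, and no group was left without transfection. Each kinase was silenced with a single pool, so an effect of losing the kinase and an effect of the pool itself cannot be told apart. The labels do not say whether the libraries of a group come from separate cultures, and the p-values then measure only the spread between these libraries, which may be technical.

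ISG15 is a small ubiquitin-like protein that interferons induce strongly. Like ubiquitin, it is passed along a chain of enzymes. UBA7 is the activating enzyme, UBE2L6 the conjugating enzyme, HERC6 the main ISG15 ligase of the mouse, and TRIM25 a ligase that can handle both ISG15 and ubiquitin and is also known for its work with the RNA sensor RIG-I. USP18 takes ISG15 off again and dampens signaling from the type I interferon receptor. PARP enzymes transfer ADP-ribose from NAD to proteins or nucleic acids. PARP10, PARP12 and PARP14 add single ADP-ribose units, and PARP9 pairs with the ubiquitin ligase DTX3L. In most cells these genes are transcribed through factors such as STAT2 and IRF9 once interferon has bound its receptor. Muscle cells also respond to interferon, as the raised ISG15 of muscle in dermatomyositis shows.

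The libraries held 13041979 to 28496727 assigned read pairs. All 8 myotube markers (Myog, Myh3, Myh8, Acta1, Ckm, Des, Ttn and Mylpf) were measured, with a summed level of 12968 to 17136 TMM-normalized counts per 1e6 read pairs (CPM) in every library. Of 9 leukocyte markers, 5 passed the filter on low counts. Their sum stayed between 1.72 and 2.84 CPM in all 6 groups, and the general leukocyte marker Ptprc had 2 counts and the macrophage marker Adgre1 had 0 counts over all libraries. Mapk6 was lowered by siErk3 in BSA (log2 fold change -1.20 ± 0.06 standard error, FDR = 1.77e-14, edgeR quasi-likelihood test) and in PA (-0.95 ± 0.06, FDR = 1.21e-12). Mapkapk5 had few counts, 27 to 86 per library, and shares 1801 of its exonic bases (56.4%) with Gm42878 on the same strand. Its level was -0.61 ± 0.21 with siMk5 in BSA and -0.49 ± 0.18 in PA on the log2 scale, below every siNtc library in both media, but neither passed the test over all genes (FDR = 0.469 for both). The paper reports that Western blots verified both silencings, and that Erk3 protein was also lower after Mk5 silencing. The share of 18S ribosomal counts was 1.497% to 2.96% in siErk3 BSA, 2.56% to 7.17% in siNtc BSA, 8.39% to 12.9% in siMk5 BSA, and 1.71% to 6.77% in the 3 PA groups, and its part in the results was not tested.

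The stretch of DNA just upstream of Isg15 is shown because Isg15 was the most responsive of the 10 genes and the only one of them with an interferon-stimulated response element core in its promoter window. The motif searched was GAAANNGAAA on both strands, in the 250 bases before and the 50 bases after the GENCODE M39 canonical start. It occurs in 835 of 21770 such windows (3.84%), and in 1 of the 10 genes. TTCNNNGAA, the core of the gamma-activated site, was in none of the 10 windows and in 1919 of the 21770 (8.81%). The Isg15 bases run 5′ to 3′ on the minus strand of GRCm39 at chr4:156285304-156285423, end at the start site, and carry the motif matches in capitals.
Isg15 upstream: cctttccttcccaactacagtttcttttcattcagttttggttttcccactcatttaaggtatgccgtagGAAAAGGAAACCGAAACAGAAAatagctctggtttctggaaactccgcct
The capitals hold 3 overlapping matches, GAAAAGGAAA, GAAACCGAAA and GAAACAGAAA, whose first bases lie at -50, -44 and -38 from the start. This start is 50 bases upstream of the gene's end in the count table's annotation (chromosome 4, 156283912 to 156285253, minus strand). Absence of these letters from the other windows says nothing about elements elsewhere or in another form.

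With control siRNA, PA raised all 10 genes, by 1.48-fold for Uba7 to 34.3-fold for Isg15. The median of their log2 fold changes was 1.47, against -0.03 over all genes tested. Palmitic acid moved a large part of the transcriptome, and 15.5% of all genes rose by the same criteria, an FDR below 0.05 with a fold change above 1.3. Isg15, which encodes the modifier itself, stood at 2.81, 2.96 and 2.695 CPM in the siNtc BSA libraries. It stood at 99.6, 88.2 and 103.7 CPM in the siNtc PA libraries. The groups lie far apart, with a log2 fold change of 5.10 ± 0.17 (FDR = 2.25e-21). Cell type markers moved with PA as well. With siNtc, 2 of 3 myoblast markers fell (median log2 fold change -0.85, summed level 127.0 to 146.8 CPM in BSA and 68.3 to 83.8 CPM in PA). Both fibroblast markers fell (median -0.74, 76.8 to 83.5 CPM and 45.5 to 52.5 CPM), as did 4 of 8 myotube markers (median -0.29, 15451 to 16038 CPM and 13263 to 13759 CPM). Of 5 leukocyte markers, 1 fell and none rose, and neither endothelial marker was called. The part of these shifts in the rise of the 10 genes was not tested.

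The ligases of the ISG15 chain followed. Herc6 (chromosome 6, 57557985 to 57641617, plus strand) was 3.44, 2.54 and 2.08 CPM in siNtc BSA and 15.8, 14.5 and 14.9 CPM in siNtc PA, a log2 fold change of 2.53 ± 0.13 (FDR = 9.82e-17). Trim25 (chromosome 11, 88890202 to 88911119, plus strand) went from 31.5, 36.6 and 33.0 CPM to 105.5, 99.0 and 104.7 CPM, a log2 fold change of 1.60 ± 0.06 (FDR = 3.06e-19). For both genes every PA library was above every BSA library. The enzymes before them in the chain had smaller fold changes. Ube2l6 (chromosome 2, 84629172 to 84640679, plus strand) was 8.50, 10.6 and 10.6 CPM in BSA and 19.2, 16.8 and 18.7 CPM in PA, a log2 fold change of 0.86 ± 0.13 (FDR = 1.28e-06). Uba7 (chromosome 9, 107852704 to 107861259, plus strand) was 4.92, 6.21 and 4.44 CPM in BSA and 9.18, 7.57 and 6.52 CPM in PA. Its groups did not overlap, but by a narrow margin, and its log2 fold change of 0.57 ± 0.17 (FDR = 0.00698) lost its call without siNtc BSA replicate 3 (FDR = 0.0741) or without siNtc PA replicate 1 (FDR = 0.0675).

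Among the ADP-ribosyltransferases, Parp14 rose most with PA. Parp14 (chromosome 16, 35653244 to 35691914, minus strand) was 12.9, 15.9 and 12.1 CPM in siNtc BSA and 96.2, 80.5 and 95.5 CPM in siNtc PA, a log2 fold change of 2.72 ± 0.10 (FDR = 3.20e-20). Parp9 and Dtx3l, the enzyme and its ligase partner, are head-to-head neighbors on the same chromosome. Parp9 (35758840 to 35792975, plus strand) was 18.3, 16.9 and 16.3 CPM in BSA and 54.7, 43.7 and 46.8 CPM in PA. Dtx3l (35746881 to 35759521, minus strand) was 21.1, 24.5 and 23.03 CPM in BSA and 69.4, 57.6 and 59.2 CPM in PA. Their log2 fold changes were close to each other, 1.503 ± 0.08 for Parp9 and 1.43 ± 0.08 for Dtx3l. They share 458 exonic bases on opposite strands, which the strand-specific counting separated. Parp10 (chromosome 15, 76115374 to 76127641, minus strand) was 19.2, 22.5 and 19.95 CPM in BSA and 51.7, 46.0 and 50.9 CPM in PA. Parp12 (chromosome 6, 39063344 to 39095283, minus strand) was 27.5, 28.7 and 28.1 CPM in BSA and 65.3, 59.6 and 65.2 CPM in PA. These 2 enzymes rose least of the 5, by 1.26 ± 0.08 and 1.17 ± 0.07 on the log2 scale. For each of the 5 genes the PA libraries were all above the BSA libraries. The share of all genes tested that separate in this way was not computed.

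**Figure D1:**
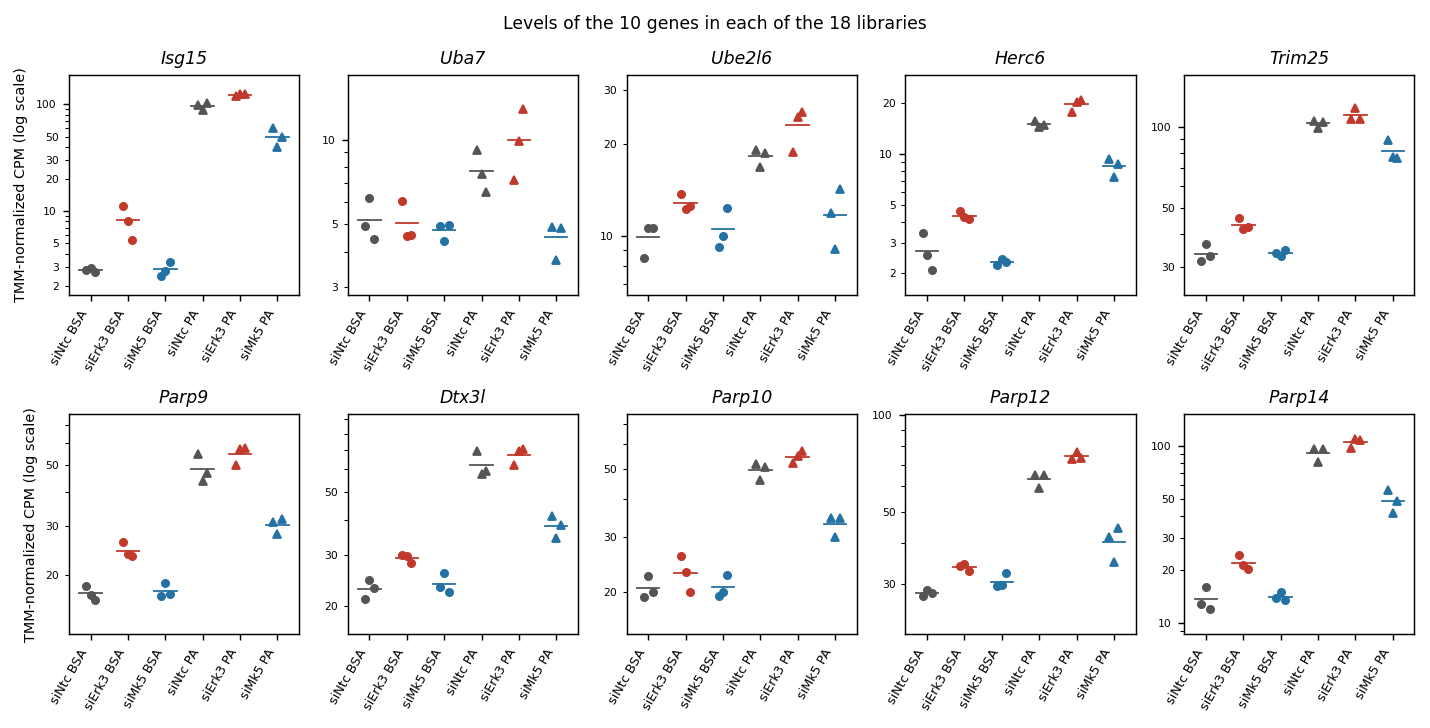
TMM-normalized CPM of each of the 10 genes (log axis) in the 18 libraries, with 1 point per library, circles for BSA, triangles for PA and a line at the mean of each group of 3. In each panel the PA triangles of siNtc and siErk3 lie above all BSA circles, and the siMk5 PA triangles lie lower than the siNtc PA triangles for all 10 genes. The share of all genes tested that separate in this way was not computed.

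Levels per length, in CPM per kilobase of exon, showed how the balance of the chain changed. In siNtc BSA the order ran from Parp12 (7.03 ± 0.16, SD, n = 3) over Trim25 (5.86 ± 0.46), Ube2l6 (4.97 ± 0.62), Parp10 (4.81 ± 0.40), Isg15 (4.01 ± 0.19), Dtx3l (3.99 ± 0.30), Parp9 (3.52 ± 0.22) and Parp14 (1.46 ± 0.22) to Uba7 (0.78 ± 0.14) and Herc6 (0.29 ± 0.07). The libraries of Ube2l6 overlapped those of Parp10, and Isg15, Dtx3l and Parp9 each overlapped the next, so these neighbors are not separated beyond their spread. In siNtc PA, Isg15 came first at 138.2 ± 11.4, ahead of Trim25 (17.9 ± 0.62) and Parp12 (15.9 ± 0.82). Parp10, Dtx3l, Parp9, Parp14 and Ube2l6 formed a run of overlapping neighbors from 11.6 to 9.13. Herc6 (1.62 ± 0.07) and Uba7 (1.16 ± 0.20) stayed lowest, now in the opposite order. The modifier thus went from slightly below its conjugating enzyme, by a narrow margin between their libraries, to far above every enzyme of its chain. The levels divide by all exonic bases of a gene, 703 for Isg15 and 1996 for Ube2l6, which need not be the transcript length. Close ranks between genes are therefore approximate. Isg15 also headed the order in siErk3 PA (175.8 ± 3.29) and siMk5 PA (70.9 ± 14.4). A first rank was not limited to PA. In siErk3 BSA, Isg15 had the highest mean as well, at 11.7, ahead of Parp12 (8.43) and Ube2l6 (6.43). Its libraries there overlapped those of Parp12, so these ranks are not separated beyond their spread.

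**Figure D2:**
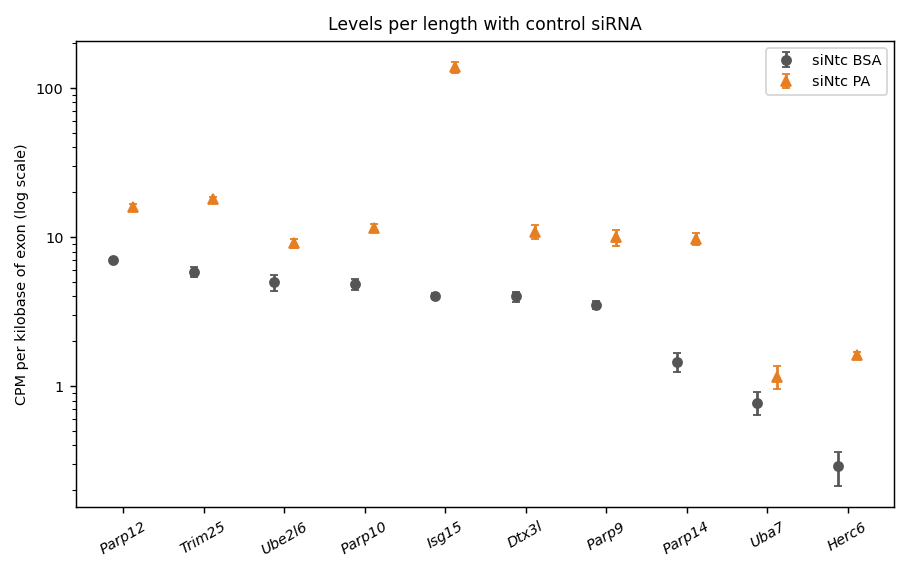
Mean level per length, in CPM per kilobase of exon (log axis), of the 10 genes in siNtc BSA (circles) and siNtc PA (triangles), with bars of 1 SD over 3 libraries and genes ordered by the BSA level. Isg15 moves from the middle of the order at 4.01 to the top at 138.2, while Uba7 and Herc6 remain lowest.

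In BSA medium, Erk3 silencing raised 4 of the 10 genes, Isg15, Herc6, Parp9 and Parp14, while 0.588% of all genes tested rose. None fell. The median log2 fold change of the 10 was 0.35, against 0.02 over all genes. Isg15 moved most, to 11.2, 8.10 and 5.33 CPM in the siErk3 libraries. These values spread widely, but the lowest of them was above the highest siNtc BSA library (2.96 CPM). The log2 fold change was 1.52 ± 0.22 (FDR = 9.92e-05). Herc6 reached 4.61, 4.26 and 4.15 CPM, above all siNtc BSA libraries, with a log2 fold change of 0.73 ± 0.15 (FDR = 0.00645). The Herc6 call was lost without siNtc BSA replicate 2 (FDR = 0.0560) or replicate 3 (FDR = 0.108). Herc6 shares 1269 of its exonic bases (13.7%) with Gm45193 on the same strand, where read pairs overlapping both were not assigned.

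Parp14 rose to 24.04, 21.4 and 20.3 CPM with siErk3 in BSA, all above siNtc BSA (log2 fold change 0.67 ± 0.11, FDR = 0.000408). Parp9 rose to 26.3, 23.8 and 23.4 CPM, also without overlap (0.52 ± 0.09, FDR = 0.000432). Its partner Dtx3l, at 30.2, 29.7 and 28.3 CPM, and Trim25, at 45.6, 41.5 and 42.3 CPM, were likewise above every siNtc BSA library. Both passed the FDR but not the fold criterion. Their log2 fold changes were 0.35 ± 0.08 (FDR = 0.0212) and 0.35 ± 0.07 (FDR = 0.00267), against a criterion of 1.3-fold. Each was called when some single libraries were left out. Over all such omissions the FDR went up to 0.133 for Dtx3l, which no longer passes, and up to 0.0368 for Trim25. Parp12 at 32.7 to 34.4 CPM (0.26 ± 0.07, FDR = 0.0640) and Ube2l6 at 12.3 to 13.7 CPM (0.35 ± 0.13, FDR = 0.286) did not pass, although their libraries did not overlap with siNtc. Parp10 (0.15 ± 0.09) and Uba7 (-0.06 ± 0.18) overlapped with siNtc. The share of all genes tested whose siErk3 and siNtc libraries separate was not computed in either medium, so separation is a description only. The siErk3 libraries also differed in some muscle genes. Of the 8 myotube markers, 2 were called in BSA, the embryonic and perinatal myosins Myh3 (0.39 ± 0.05) and Myh8 (0.57 ± 0.05), which rose. The 8 had a median log2 fold change of 0.03 and a lowest value of -0.22. In PA, 1 of the 8 was called, also higher. The part of these differences in the result was not tested. The summed leukocyte markers were 2.19 to 2.49 CPM in siErk3 BSA and 2.32 to 2.84 CPM in siNtc BSA.

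Under PA, Erk3 silencing gave a call for 1 of the 10 genes, Herc6, while 0.432% of all genes tested rose. Herc6 stood at 17.7, 20.4 and 21.04 CPM in siErk3 PA, all above siNtc PA, with a log2 fold change of 0.38 ± 0.09 (FDR = 0.0255). This call sits at the fold criterion and did not survive the omission of siNtc PA replicate 2 (FDR = 0.178), siNtc PA replicate 3 (FDR = 0.0609), siErk3 PA replicate 2 (FDR = 0.190) or siErk3 PA replicate 3 (FDR = 0.0707), nor a fit of these 2 groups alone (FDR = 0.0956). All 10 log2 fold changes were above 0, with a median of 0.22, against -0.004 over all genes. Isg15 was 121.0, 125.4 and 124.4 CPM in siErk3 PA, above all siNtc PA libraries, but its log2 fold change of 0.35 ± 0.10 did not pass (FDR = 0.140). Uba7, at 7.18, 9.88 and 12.8 CPM, and Ube2l6, at 18.9, 24.6 and 25.6 CPM, passed neither the FDR nor the fold criterion (log2 fold changes 0.35 ± 0.15, FDR = 0.520, and 0.34 ± 0.11, FDR = 0.247).

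Mk5 silencing in BSA medium gave no call among the 10 genes, while 0.0643% of all genes tested changed in either direction. With edgeR 0 of the 10 had an unadjusted p under 0.05, and DESeq2 also called 0. The log2 fold changes ran from -0.17 ± 0.18 for Herc6 to 0.11 ± 0.07 for Parp12, with a median of 0.02. Isg15 was 2.49, 2.77 and 3.35 CPM, on both sides of the siNtc BSA values, a log2 fold change of 0.01 ± 0.29. Parp14, at 13.9, 14.9 and 13.5 CPM, lay within its siNtc BSA range (0.04 ± 0.12). The precision differs among the genes, from a standard error of 0.07 for Trim25 to 0.29 for Isg15, so a moderate change of Isg15 was not detectable at these counts of 40 to 71 per library.

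With PA in the medium, Mk5 silencing lowered 9 of the 10 genes, while 0.491% of all genes tested fell. The median log2 fold change of the 10 was -0.69, against 0.00 over all genes, and for all 10 genes the siMk5 PA libraries were below the siNtc PA libraries. The share of all genes tested that separate in this way was not computed, so this count is a description only. Isg15 was 60.3, 40.0 and 49.3 CPM, a log2 fold change of -0.96 ± 0.11 (FDR = 8.52e-07). Herc6 was 9.44, 7.36 and 8.82 CPM (-0.82 ± 0.10, FDR = 3.65e-06). Uba7 and Ube2l6 overlapped with their siMk5 BSA libraries. Uba7 stood at 4.90, 3.73 and 4.85 CPM (-0.79 ± 0.17, FDR = 0.0144), and Ube2l6 at 11.9, 9.08 and 14.3 CPM (-0.64 ± 0.12, FDR = 0.00336). Both calls depended on single libraries. Without siMk5 PA replicate 2 the FDR was 0.197 for Uba7 and 0.101 for Ube2l6, and without siNtc PA replicate 1 it was 0.169 for Uba7. Trim25, at 89.7, 77.0 and 76.6 CPM, fell short of the fold criterion only (-0.34 ± 0.06, FDR = 0.000559).

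The ADP-ribosyltransferases and Dtx3l all fell with siMk5 in PA. Parp14 was 56.2, 41.7 and 48.7 CPM (-0.89 ± 0.08, FDR = 1.12e-07). Dtx3l was 41.3, 34.6 and 38.3 CPM (-0.71 ± 0.07, FDR = 2.62e-07), and its partner Parp9 was 31.1, 28.2 and 31.9 CPM (-0.67 ± 0.08, FDR = 7.94e-07). The 2 genes of the shared locus fell by similar amounts. Parp12, on chromosome 6, was 41.8, 34.9 and 44.6 CPM (-0.65 ± 0.06, FDR = 1.50e-07), no farther from Parp9 than Dtx3l was. Parp10 was 34.7, 30.0 and 34.6 CPM (-0.58 ± 0.08, FDR = 1.43e-05). All 5 calls held when any single library was left out. In these bulk libraries, a lower level in every myotube and a response in fewer of them cannot be told apart. The summed leukocyte markers were 1.96 to 2.84 CPM in siMk5 PA and 1.72 to 2.65 CPM in siNtc PA.

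**Figure D3:**
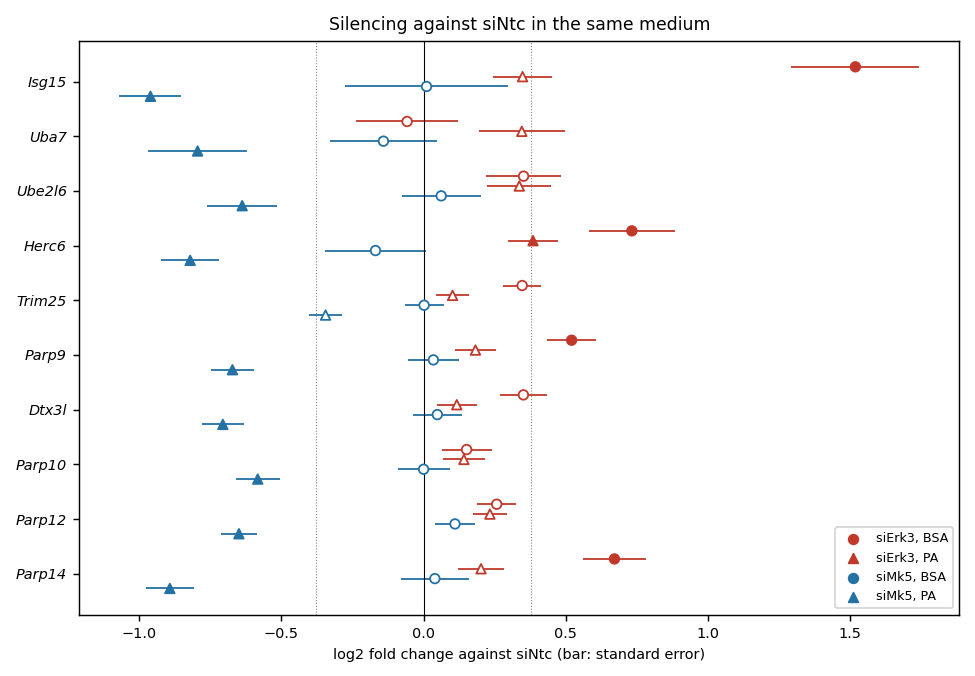
Log2 fold change against siNtc in the same medium for the 10 genes with siErk3 (red) and siMk5 (blue), circles for BSA and triangles for PA, with bars of 1 standard error from 3 libraries per group. Filled symbols passed the FDR and the 1.3-fold criterion (dotted lines). The siMk5 PA triangles lie below 0 for all 10 genes, and siErk3 in BSA lies farthest to the right for Isg15 at 1.52.

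The direct comparison of both silencings contrasts no siNtc library, although those libraries enter the shared fit. In BSA medium, siErk3 libraries had more transcript than siMk5 libraries for 4 of the 10 genes, while 0.482% of all genes tested were higher. They were Isg15 (1.51 ± 0.22), Herc6 (0.90 ± 0.15), Parp14 (0.63 ± 0.11) and Parp9 (0.49 ± 0.08). In PA, all 10 genes were higher with siErk3, while 0.854% of all genes tested were. The log2 differences ran from 0.45 ± 0.06 for Trim25 to 1.31 ± 0.11 for Isg15, with a median of 0.93. For Uba7, the activating enzyme, the difference was 1.14 ± 0.17 (FDR = 2.93e-05), its largest among the silencing comparisons. All 10 calls in PA held in each fit without 1 library. The share of 18S counts did not overlap in BSA, at 1.497% to 2.96% with siErk3 and 8.39% to 12.9% with siMk5, and overlapped in PA, at 3.74% to 6.77% and 1.71% to 6.69%. Its part in these differences was not tested.

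Whether silencing altered the response to PA was tested as an interaction. PA still raised all 10 genes with siErk3, where 15.8% of all genes tested rose, by log2 fold changes of 0.84 ± 0.12 for Ube2l6 to 3.93 ± 0.13 for Isg15. With siMk5 it raised 8 of the 10, where 15.1% of all genes tested rose. Uba7 (-0.08 ± 0.19, FDR = 0.770) and Ube2l6 (0.16 ± 0.13, FDR = 0.376) were not called there, and Parp12 rose by only 0.41 ± 0.07, a call that was lost without siMk5 PA replicate 1 or 3 because it fell under the fold criterion. The difference between PA effects in siMk5 and siNtc was below 0 for all 10 genes and passed for 5, while 0.161% of all genes tested passed in that direction. The 5 were Parp14 (-0.93 ± 0.15, FDR = 0.00125), Parp12 (-0.76 ± 0.10, FDR = 0.000191), Dtx3l (-0.75 ± 0.11, FDR = 0.000662), Parp9 (-0.71 ± 0.12, FDR = 0.00318) and Parp10 (-0.58 ± 0.12, FDR = 0.0225). The Parp10 call was lost in 7 of the fits without 1 library, with FDR up to 0.149.

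None of the 5 genes of the ISG15 chain passed the siMk5 interaction in the fit of all libraries with the filter on low counts. Isg15 (-0.97 ± 0.31), Ube2l6 (-0.70 ± 0.19, FDR = 0.146), Uba7 (-0.65 ± 0.26) and Herc6 (-0.65 ± 0.21) had estimates similar in size to those of the 5 called genes, with wider errors. The Trim25 estimate (-0.35 ± 0.09) was smaller than those of the 5 called genes and under the fold criterion, and its error was not wider. With no filter on low counts, Isg15 (-0.97, FDR = 3.54e-06) and Ube2l6 (-0.69, FDR = 0.000111) passed. Their estimates hardly changed, so these passes rest on the filter setting and are not taken as support. Ube2l6 also passed without siMk5 PA replicate 3 (FDR = 0.0337), and Trim25 without siMk5 PA replicate 1 (FDR = 0.0251). The siErk3 interaction was called for 0 of the 10 genes with edgeR and with DESeq2, while 0.0367% of all genes tested passed in either direction. An unadjusted p under 0.05 was found for 5 of the 10. The share of all genes tested with such a p was not computed, so this count is a description only. The largest siErk3 interaction among the 10 was that of Isg15 with -1.17 ± 0.25 (FDR = 0.108). It passed without siErk3 BSA replicate 3 (-1.43, FDR = 0.00166) and without siErk3 PA replicate 3 (FDR = 0.0442). The higher Isg15 of siErk3 in BSA therefore cannot be called reduced under PA from these libraries, although both values stand side by side at 1.52 and 0.35.

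**Figure D4:**
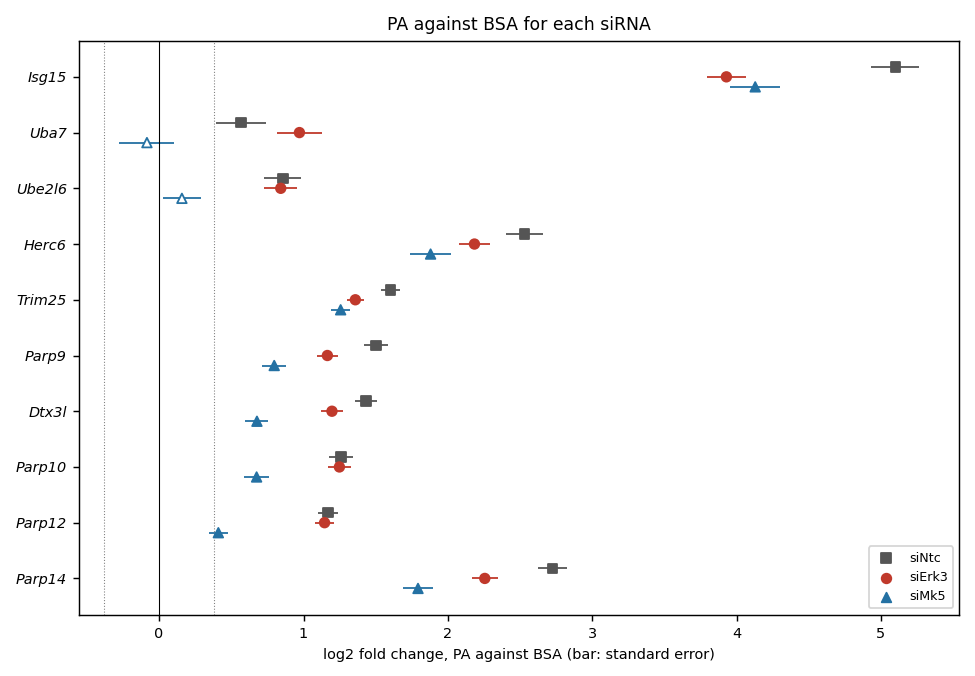
Log2 fold change of PA against BSA for the 10 genes with siNtc (squares), siErk3 (circles) and siMk5 (triangles), with bars of 1 standard error from 3 libraries per group. Filled symbols passed the FDR and the 1.3-fold criterion (dotted lines). The siMk5 triangles lie left of the siNtc squares for all 10 genes, and Uba7 and Ube2l6 are open with siMk5.

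The 10 genes moved together across the 18 libraries, which is given as a description because the libraries share their groups. Over all pairs of the 10, Pearson's r of log2 CPM was highest for Isg15 with Trim25 (0.994) and lowest for Isg15 with Uba7 (0.643). Parp9 and Dtx3l had an r of 0.990. Uba7 (0.736) and Ube2l6 (0.871) were the least like the mean of the other 9 genes, and the remaining 8 each reached at least 0.969. Among the 11736 other genes searched, those with the most similar profiles included Rigi (0.997), Samd9l (0.996), Gbp3 (0.994) and Ifi35 (0.993).

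Usp18, which removes ISG15, moved with the chain. It was 0.56, 1.17 and 0.52 CPM in siNtc BSA and 5.45, 3.67 and 2.83 CPM in siErk3 BSA, a log2 fold change of 2.31 ± 0.30 (FDR = 1.44e-05). It was 45.1, 38.5 and 50.9 CPM in siNtc PA, 58.1, 61.1 and 59.5 CPM in siErk3 PA (0.41 ± 0.10, FDR = 0.0450), and 24.2, 17.7 and 22.4 CPM in siMk5 PA (-1.06 ± 0.11, FDR = 3.72e-07). In the siErk3 interaction it was called at -1.89 ± 0.32 (FDR = 0.0407). That call was kept in 12 of 18 alternative fits, and the call for siErk3 in PA in 6 of 12, DESeq2 not among them. The other 10 genes of the ubiquitin side that were looked at, such as the activating enzymes Uba1 and Uba6, the conjugating enzyme Ube2l3 and the Herc6 relatives Herc3 and Herc4, were not called in any of the silencing comparisons with siNtc. Among all 11, the median log2 fold change was 0.05 for siErk3 in BSA and -0.00 for siMk5 in PA.

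Of 12 other Parp family members tested, 0 were called with edgeR or DESeq2 in any of the 4 comparisons of a silencing with siNtc, and 2 had an unadjusted p under 0.05 in each of them. Their fold changes were small, with log2 fold changes of -0.07 to 0.18 for siErk3 in BSA and -0.20 to 0.13 for siMk5 in PA. Zc3hav1, the antiviral PARP13, rose with PA in siNtc by 1.63 ± 0.05, yet its values were 0.17 ± 0.05 for siErk3 in BSA and -0.13 ± 0.05 for siMk5 in PA, neither called. Among the silencing comparisons, Parp11 was called only between the silencings in PA, higher with siErk3 by 0.45 ± 0.09 (FDR = 0.00148). Of the 3 other Deltex genes tested, 0 were called with either tool in those 4 comparisons, with at most 2 at an unadjusted p under 0.05. Dtx3 had a siMk5 interaction of 0.40 ± 0.07 (FDR = 0.00537), in the direction opposite to Dtx3l. The 6 enzymes that remove ADP-ribose also gave 0 calls with either tool in the 4 comparisons, and 0 with an unadjusted p under 0.05, with medians of -0.03 for siErk3 in BSA and 0.00 for siMk5 in PA. Of all 21772 genes tested, edgeR called 171 for siErk3 in BSA, 121 for siErk3 in PA, 14 for siMk5 in BSA and 119 for siMk5 in PA. Calls were thus rare, and 0 calls in lists this short does not set them apart. The same holds for the uncalled genes of the ubiquitin side. Shares of all genes by unadjusted p were not computed.

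**Figure D5:**
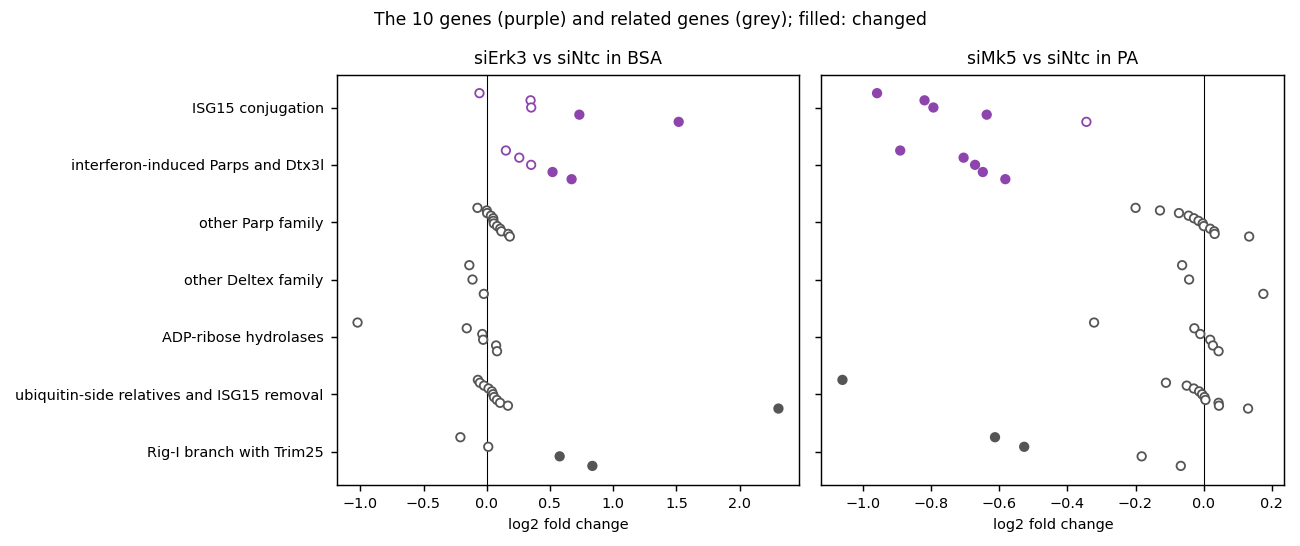
Log2 fold changes against siNtc for siErk3 in BSA (left) and siMk5 in PA (right), with 1 point per gene, the 10 genes in purple and related lists in grey. Filled points passed the FDR and the 1.3-fold criterion. Other Parp, Deltex and hydrolase genes have no filled point in either panel, and the filled point of the ubiquitin-side list is Usp18. Of all 21772 genes tested, 171 were called in the left comparison and 119 in the right, so a short list without a filled point is not unusual.

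Genes upstream of the 10 were read from the same fits. Interferon beta transcripts (Ifnb1) were not seen in any of the 9 BSA libraries, and 3 counts per library is the limit that a count of 0 allows. Ifnb1 had 1, 2 and 4 counts in siNtc PA, 5, 7 and 5 in siErk3 PA, and 1, 1 and 2 in siMk5 PA. Its rise with PA was called in siNtc (edgeR, FDR = 0.0182, kept in 6 of 12 alternative fits) and in siErk3 (FDR = 0.000447, kept in 11 of 12). It was not called in siMk5. These counts are too few to give the size of a change. Of the 5 interferon ligand and receptor genes tested, 0 were called with edgeR or DESeq2 in the 4 comparisons of a silencing with siNtc, and at most 1 had an unadjusted p under 0.05. As few of all genes tested were called in these comparisons, this does not set the list apart. Among the interferon transcription factors, Irf7 (1.52 ± 0.23), Irf9 (0.59 ± 0.11) and Stat2 (0.46 ± 0.08) rose with siErk3 in BSA. The same factors fell with siMk5 in PA, Irf7 (-0.93 ± 0.12), Stat2 (-0.58 ± 0.06) and Irf9 (-0.40 ± 0.09). The Irf9 call there was lost in 3 fits without 1 library (siNtc PA replicate 1 or 3, siMk5 PA replicate 2). Stat2 (-0.61 ± 0.10) and the sensor gene Rigi (-0.72 ± 0.13) also passed the siMk5 interaction. Among the silencing comparisons, Irf1 was called only between the silencings in PA, higher with siErk3 by 0.39. Of 4 genes listed around RIG-I, the sensor with which TRIM25 works, Rigi itself (0.58 ± 0.09) and Ifih1 (0.84 ± 0.20) rose with siErk3 in BSA. Ifih1 encodes a separate RNA sensor. Both fell with siMk5 in PA (-0.61 ± 0.08 and -0.53 ± 0.12), Ifih1 with overlapping libraries, and Ifih1 also rose with siErk3 in PA (0.49 ± 0.11). The 3 Ifih1 calls were each kept in 6 or 7 of 12 alternative fits, whereas the Rigi calls for siErk3 in BSA and siMk5 in PA were kept in all 12. The counts of called genes by list are descriptions, since the lists were chosen with results of these libraries known.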

How the data were processed

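RNA of 18 libraries was prepared as poly(A)-selected, strand-specific libraries and sequenced in pairs. The deposited counts are whole numbers of read pairs per gene without normalization. Per the file header, the authors ran featureCounts 2.0.0 on the Ensembl 105 annotation using strand setting 2, a mapping quality of at least 3 and primary alignments. Pairs that touched exons of several same-strand genes were therefore not assigned, and pairs with a second mapping place could be counted. The methods and the header give GRCm39, whereas the submitters' processing notes list mm10 and Salmon. Coordinates are those of the count table. The second deposited table, of log2 values, was not used here. The number of count columns of other samples was 0.

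Counts were analysed with edgeR 4.0.16 in R 4.3.3. The methods' filter of 10 counts summed over all libraries left 21772 genes, of which 21601 have a symbol in GENCODE M39. One quasi-likelihood fit with TMM and a coefficient per group gave 11 comparisons. P-values were adjusted by the Benjamini-Hochberg method over all genes tested (FDR), and a gene was called at FDR below 0.05 and a fold change above 1.3. Standard errors are the log2 fold change divided by the root of the F statistic. An exact permutation test of 3 against 3 libraries cannot go below 0.1 and was not used. DESeq2 1.42.0, other normalizations and filters, a replicate block, single groups and the omission of each library were run as alternatives. The procedure was tested on simulated data. Promoters were read from the GRCm39 sequence.

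The 10 genes and all lists were chosen with earlier results of these data known. Named are the 10 genes, both targeted genes, listed genes that were called in a silencing comparison, Usp18, Zc3hav1, Stat2, Irf9, Irf7, Ifnb1, and genes most correlated with the mean profile of the 10. An item of this rule is not reported here. The genes given as examples of uncalled list members are outside this rule.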

Additional observations from a re-analysis of the deposited data

Results flagged for a closer look

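The response to PA differed between siMk5 and siNtc for 5 genes, by the test of the difference itself (edgeR quasi-likelihood interaction). On the log2 scale the difference was -0.93 for Parp14, -0.76 for Parp12, -0.75 for Dtx3l, -0.71 for Parp9 and -0.58 for Parp10. PA raised each of the 5 in both siRNA groups, and less with siMk5. Parp12 showed the smallest rise with siMk5, 0.41 against 1.17 with siNtc. The Parp10 call rests on its threshold, with an FDR of 0.0225 over all libraries and 0.0610 with edgeR's own filter on low counts.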

How the results depend on the processing

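No log2 fold change of the 10 genes that was called reversed under any alternative run. The Herc6 count in siErk3 against siNtc under PA depends on the setting: 0 genes were called when only the groups compared were fitted, and 0 to 2 when 1 library was left out, the second gene being Ube2l6. For the siErk3 interaction with PA, 2 genes were called with no filter on low counts (Isg15 and Parp14), and 0 to 1 (Isg15) when 1 library was left out. Without the filter the estimates hardly changed, at -1.16 against -1.17 for Isg15 and -0.45 against -0.47 for Parp14. Calls added in that way rest on the filter setting and are not taken as support. Leaving out 1 library gave 3 to 5 calls for siErk3 in BSA, 7 to 10 for siMk5 in PA and 4 to 6 for the siMk5 interaction. The siMk5 interaction gave 7 calls with no filter, where Isg15 and Ube2l6 were again added by the filter setting. By FDR alone, 6 genes were called for siErk3 in BSA and 10 for siMk5 in PA. DESeq2 gave the same counts as edgeR in all 11 comparisons. So did the fit with a replicate block, with 4 calls for siErk3 in BSA and 9 for siMk5 in PA. The replicate numbers of the labels did not mark shared deviations (mean r -0.00, from -0.64 to 0.56 over 45 pairs of libraries and 9723 genes), so the block is not read as a pairing. Depth limits Mapkapk5, Ifnb1 and, in BSA, Isg15, Herc6 and Usp18.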
